A study of Mus musculus with 4 samples.

Results

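Plasma cells leave the tissue where they formed and lodge in niches by means of a small set of surface molecules. Chemokine receptors read the address: CCR10 answers CCL27 and CCL28 of epithelia and is typical of IgA plasma cells, CCR9 answers CCL25 of the small intestine, CXCR4 answers CXCL12 of the bone marrow, CXCR3 answers interferon-induced chemokines of inflamed tissue, and CCR7 answers the chemokines of lymph node T zones and is lost when B cells become plasma cells. S1PR1 is the receptor through which lymphocytes leave lymphoid organs along a gradient of sphingosine-1-phosphate. PSGL-1 (gene Selplg) and CD44 can carry the sugars that selectins bind, CD44 also binds hyaluronan, and ALCAM is an adhesion molecule that binds itself and CD6.

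These 9 genes, Ccr10, Cxcr4, Cxcr3, Ccr7, Ccr9, S1pr1, Selplg, Cd44 and Alcam, were chosen by name, with earlier results of these data known. Every probe set annotated with exactly 1 of these symbols was taken, which gave 20 of the 45101 probe sets on the array and 9 of 18193 measured genes. They were measured in J558, a BALB/c (H-2Ld) mouse plasmacytoma cell line, with 1 Affymetrix Mouse 430 2.0 array for each of 4 clones. The 2 AID-silenced clones had received the vector pSilencerTM1.0 with a sequence against AID, the deaminase that mutates immunoglobulin genes, and the 2 control clones had received the empty vector. All 4 clones also carried a Neo vector and had been selected with G418, and the labels arrange them as pair 1 and pair 2, each with 1 AID-silenced and 1 control clone. Each group therefore rests on 2 clones with a single array each, so that p-values measure the spread between these clones, and differences between clones cannot be told apart from differences between hybridisations.

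Signals are MAS5 intensities on a linear scale, with the 2% trimmed mean of every array at 500. No detection calls were used, so the highest signal among 15 bacterial control probe sets was taken as a background level for each array. For pairs 1 and 2 it was 27.3 and 27.2 in the AID-silenced clones and 41.9 and 27.5 in the control clones. The plasma cell label held at its markers, since all 9 of 9 listed plasma cell genes lay above this level on all 4 arrays, with summed signals of 148675 and 175195 in the AID-silenced clones and 135657 and 171617 in the control clones. Of the T cell markers, Cd4 and Cd3d lay above it on no array and Cd8a, at its brightest probe set only, on every array. Cd3e had 23.7 and 14.9 in the AID-silenced clones against 58.7 and 42.6 in the control clones, above background in the control clones only. Cd3g had 5.2 and 32.2 in the AID-silenced clones against 33.2 and 67.3 in the control clones, above background in the clones of pair 2 only. Summed T cell marker signals were 80.0 and 145.3 in the AID-silenced clones and 172.2 and 203.3 in the control clones, and those of 5 myeloid markers were 369 and 462.2 in the AID-silenced clones against 312.3 and 349.2 in the control clones. Above background on all arrays were 1 of 4 measured B cell, 1 of 5 myeloid and 1 of 3 fibroblast markers and 0 of 1 NK cell marker. That marker, Ncr1, had signals of 6.4 and 5.3 in the AID-silenced clones against 51.2 and 32.5 in the control clones, above background in the control clones only. The part of other cells in the results was not tested.

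Differences are given on the log2(signal + 16) scale as AID-silenced minus control, which understates those of dim probe sets, and 2-fold corresponds to 1 on that scale. The upper 0.5 of probe sets by mean on that scale, 22519 in all, were tested with limma, and a call needed an adjusted p (Benjamini-Hochberg, over all of them) under 0.05. Of the 20 probe sets 12 were tested, and they stood for 6 genes, whereas Ccr7, Ccr9 and S1pr1 fell below the filter at every probe set. None of the 12 was called, with 0.00888% of all tested probe sets called, and none with the pair as a block, where 0.0355% were. An unadjusted limma p under 0.05 was reached by 1 of the 12, that of Ccr10, which entered the test through its signals in the AID-silenced clones. Of all tested probe sets 3.49% reached it. A gene below stands for its brightest probe set unless another is named.

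Among the chemokine receptors, Ccr10 was the member that stood higher by at least 2-fold in both pairs. Its signals were 122.1 and 116.1 in the AID-silenced clones of pairs 1 and 2, against 37.3 and 6.4 in the control clones. Both AID-silenced clones lay above both control clones, and neither control clone exceeded the background level of its array. With each control signal set to that level, Ccr10 was at least 3.51-fold higher in the AID-silenced clones as a mean over both pairs on the log2 scale. On the log2 scale the difference was 1.97 ± 0.49 (SE, n = 2 per group), from 1.37 in pair 1 and 2.56 in pair 2, and limma gave an adjusted p of 0.9996 and an unadjusted p of 0.00572. An at least 2-fold higher value in both pairs was found for 0.563% of tested genes and a lower one for 0.449%. Ccr10 entered the test through its signals in the AID-silenced clones, so its mean signal depended on the group in which it was high. Leaving out the control clone of pair 1 gave a difference of 2.59 with a limma adjusted p of 0.0427, in a fit that called 0.648% of all probe sets. Leaving out the control clone of pair 2 gave 1.34 with an adjusted p of 0.659.

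Cxcr4, the bone marrow homing receptor, differed in opposite directions in the 2 pairs. Its signals were 4244 and 5192 in the AID-silenced clones, against 6277 and 2682 in the control clones. The AID-silenced clones lay between the control clones, which marked the highest and the lowest of the 4 values. The difference was −0.56 in pair 1 and 0.95 in pair 2, with a mean of 0.19 ± 0.40 (SE, n = 2 per group, limma adjusted p = 0.9996). Cxcr3, the receptor for interferon-induced chemokines, had the same arrangement. It had 70.6 and 80.2 in the AID-silenced clones and 110.2 and 63.4 in the control clones, which gave −0.54 in pair 1 and 0.28 in pair 2 and a mean of −0.13 ± 0.38 (SE, n = 2 per group, limma adjusted p = 0.9996). For both receptors the control clone of pair 1 was the highest and that of pair 2 the lowest. An opposite sign in the pairs was found for 45.8% of tested genes.

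**Figure D1:**
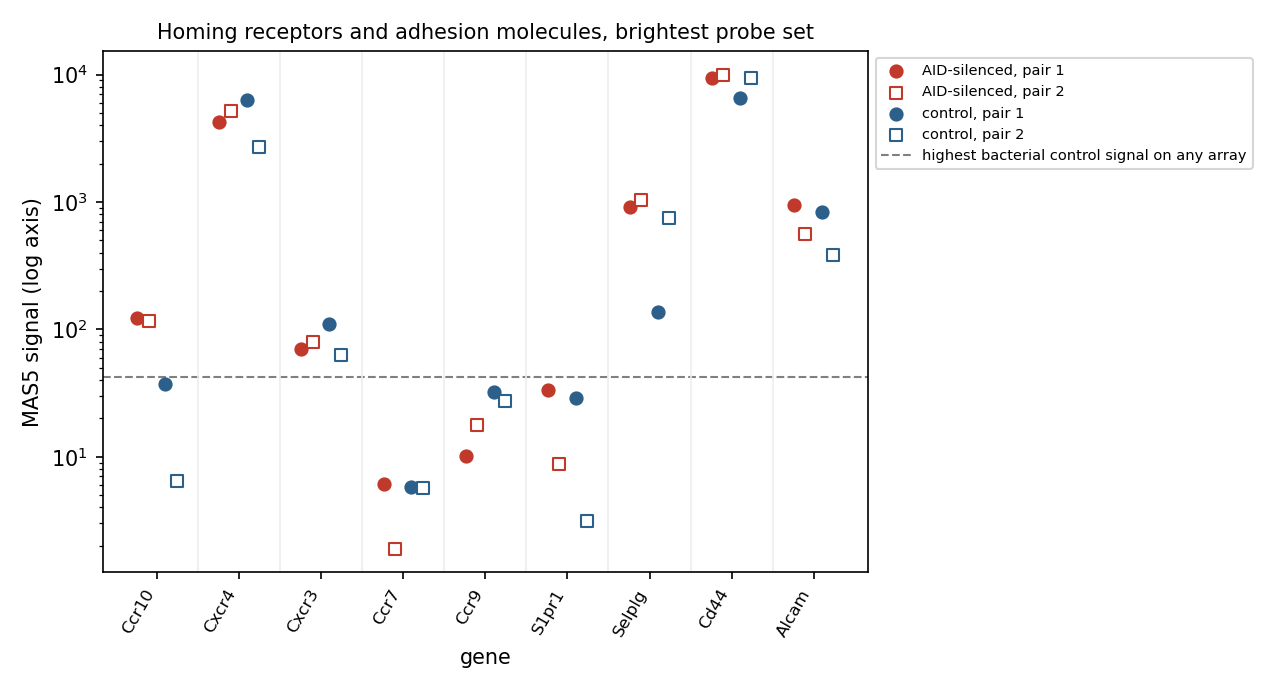
Signal of each gene at its brightest probe set (log axis) in the AID-silenced clones (red) and the control clones (blue), with filled circles for pair 1 and open squares for pair 2 and 1 array a point. The dashed line is 41.9, the highest bacterial control signal on any array. Ccr10 lies above it in the AID-silenced clones only, Ccr7, Ccr9 and S1pr1 lie under it in every clone, and Selplg is lowest in the control clone of pair 1.

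The receptors for lymph node and gut homing were near background. Ccr7 had signals of 6.1 and 1.9 in the AID-silenced clones and 5.8 and 5.7 in the control clones, all under the background level of their arrays. Ccr9 was read by 5 probe sets, and 19 of their 20 signals lay under that level. At the brightest, 1421920_a_at, signals were 10.2 and 17.6 in the AID-silenced clones and 32.1 and 27.4 in the control clones. The exception was 1421919_a_at, with 4.1 and 29.7 in the AID-silenced clones against 2.5 and 1.7 in the control clones. The probe sets of Ccr9 gave differences between −1.06 and 0.74, so they disagreed in sign, and no level or difference of Ccr9 was detectable above background.

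S1pr1, the egress receptor, had signals of 33.3 and 8.8 in the AID-silenced clones and 28.9 and 3.1 in the control clones. Only the AID-silenced clone of pair 1 exceeded its background level. The groups overlapped, and no difference of S1pr1 was detectable above background.

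Selplg, which encodes the scaffold of the main leukocyte ligand of P-selectin, was higher in both pairs, but by unlike amounts. Its signals were 917 and 1043 in the AID-silenced clones, against 136.1 and 753.9 in the control clones. Both AID-silenced clones lay above both control clones, and the control clone of pair 1 stood far below the other 3. The difference was 2.62 in pair 1, or 6.13-fold, and 0.46 in pair 2, or 1.38-fold, with a mean of 1.54 ± 0.73 (SE, n = 2 per group, limma adjusted p = 0.9996). The size of this mean was set by the control clone of pair 1. Without that clone the difference was 0.37 (adjusted p = 0.920 by limma), and without the control clone of pair 2 it was 2.71 (adjusted p = 0.0169 by limma, in a fit that called 0.231% of all probe sets).

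Cd44 was far above background in every clone at 3 of its 4 probe sets, and its differences between the groups were small. At 1423760_at signals were 9469 and 9991 in the AID-silenced clones and 6540 and 9389 in the control clones. The groups did not overlap there, though the AID-silenced clone of pair 1 and the control clone of pair 2 nearly met. The difference was 0.53 in pair 1 and 0.09 in pair 2, with a mean of 0.31 ± 0.23 (SE, n = 2 per group, limma adjusted p = 0.9996). A second bright probe set, 1434376_at, had 7626 and 7181 in the AID-silenced clones against 6272 and 6283 in the control clones, a difference of 0.24 ± 0.19 (SE, n = 2 per group). The groups did not overlap at this probe set either. At the third, 1452483_a_at, they did overlap, and the pairs went apart at 0.34 and −0.20. The fourth, 1443265_at, was dim, with 20.8 and 45.7 in the AID-silenced clones and 4.2 and 3.6 in the control clones, and it exceeded background in the AID-silenced clone of pair 2 only.

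Alcam was measured above background in every clone at all 5 of its probe sets. At 1426300_at signals were 954.4 and 564.8 in the AID-silenced clones and 838.8 and 386.1 in the control clones. The values were ordered by pair and not by group, with both pair 1 clones above both pair 2 clones. The difference was 0.18 in pair 1 and 0.53 in pair 2, with a mean of 0.36 ± 0.44 (SE, n = 2 per group, limma adjusted p = 0.9996), while the pair 2 clone lay below the pair 1 clone by 0.74 among the AID-silenced and 1.09 among the control clones. The pair 2 clone was the lower one in both groups at 4 of the 5 probe sets. The fifth, 1443086_at, had 113.5 and 59.2 in the AID-silenced clones and 60.7 and 85.0 in the control clones. The 5 mean differences ran from −0.01 to 0.61. The groups did not overlap at 1437466_at alone, with 137.7 and 86.7 in the AID-silenced clones against 82.6 and 52.9 in the control clones.

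**Figure D2:**
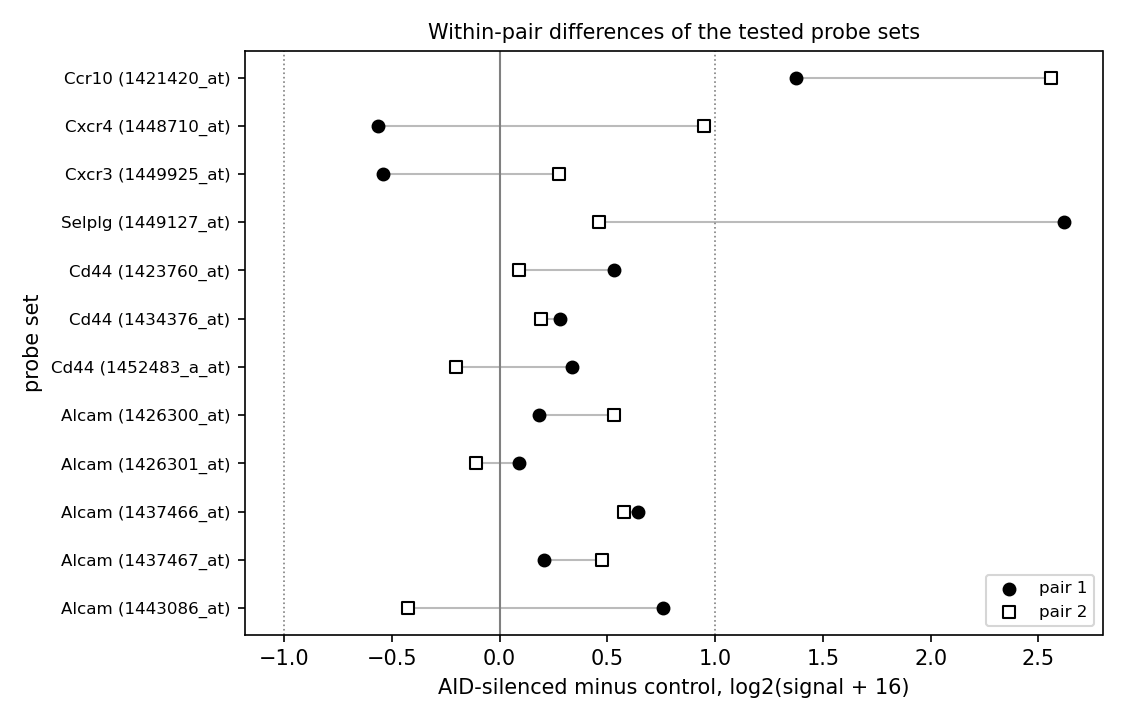
Difference between the AID-silenced and the control clone on the log2(signal + 16) scale in pair 1 (filled circles) and pair 2 (open squares), for the 12 tested probe sets, with dotted lines at 2-fold. Only Ccr10 lies beyond 2-fold in both pairs, and Selplg does so in pair 1 alone. The pairs lie on opposite sides of 0 for Cxcr4, Cxcr3, Cd44 at 1452483_a_at, and Alcam at 1426301_at and 1443086_at.

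Counted by gene, 4 of the 6 tested members had higher signals in the AID-silenced clone of each pair, none was lower in both, and 2 went apart, where 26.7% of all tested genes were higher in both and 27.5% lower in both. Ccr10, Selplg and Cd44 were the 3 whose groups did not overlap, with the AID-silenced clones above, which held for 14.3% of tested genes, and the reverse for 14.4%. The median difference over these 6 genes was 0.33, with 0.36 in pair 1 and 0.50 in pair 2, beside −0.005, 0.001 and −0.008 over all 10475 tested genes. Without Ccr10, which had passed the filter through the AID-silenced clones, a count added after the values were seen, 3 of 5 were higher in both pairs, 2 of 5 did not overlap and the median was 0.31. These counts describe the genes bright enough to be tested and leave out Ccr7, Ccr9 and S1pr1. The members were chosen with earlier results of these data known, so the shares over all genes cannot serve as a test of the set. By probe set, 7 of 12 were higher in both pairs and none was lower in both, beside 27.8% of tested probe sets higher in both.

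The distance between the 2 clones of a group was read for the 5 tested members other than Ccr10, whose control signals both lay under background. At the brightest probe set the control clones were further apart than the AID-silenced clones for all 5 of these, which was so for 52.3% of tested genes. They were at least 2-fold apart for 3 of the 5, Selplg (5.06-fold), Cxcr4 (2.33-fold) and Alcam (2.13-fold), where 10.3% of tested genes were. The AID-silenced clones were at least 2-fold apart for none of them, where 6.55% of tested genes were, and their largest gap was 1.67-fold, for Alcam. The control clone of pair 1 was the lower one for Selplg and Cd44 and that of pair 2 for Cxcr4, Cxcr3 and Alcam. Over the 11 tested probe sets of these genes the control clones were further apart at 7, beside 53% of all tested probe sets, and the other 4 were probe sets of Cd44 and Alcam.

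**Figure D3:**
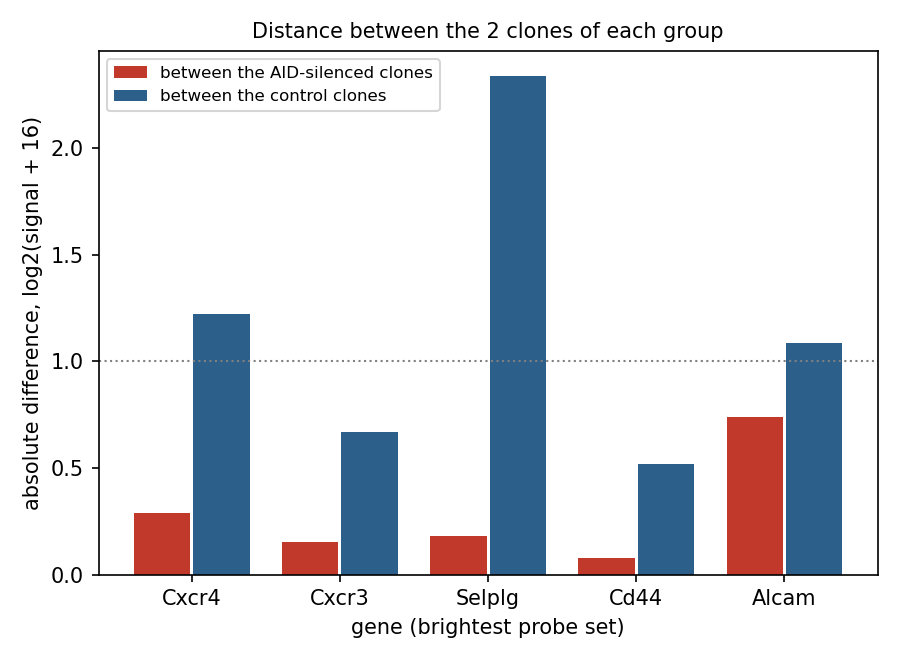
Absolute difference on the log2(signal + 16) scale between the 2 AID-silenced clones (red) and between the 2 control clones (blue) for the 5 tested genes above background on all arrays, at the brightest probe set, with a dotted line at 2-fold. The control clones are further apart for each gene, and the largest gap is 2.34 for Selplg.

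The genes that act with these receptors were read from lists by role. PSGL-1 binds selectins only after its sugars have been built, and of 16 measured genes for selectins and for the synthesis of their ligands 10 were tested. Of these 4 were higher in both pairs, 2 lower in both and 4 opposite, with a median difference of 0.10, and none was called. B4galt1, a galactosyltransferase that builds the sugar chain under the selectin-binding cap, had signals of 2690 and 2766 in the AID-silenced clones, against 1318 and 1528 in the control clones. The groups did not overlap, and the clones within each group lay close together. The difference was 0.94 ± 0.22 (SE, n = 2 per group), 1.02 in pair 1 and 0.85 in pair 2, with a limma adjusted p of 0.9996 and an unadjusted p of 0.00392. It ran from 0.83 to 1.04 when any 1 clone was left out.

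Tpst2, a sulfotransferase that acts on tyrosines such as those of PSGL-1, had 3158 and 4538 in the AID-silenced clones and 2115 and 3592 in the control clones, so the groups overlapped although each pair was higher. Slc35a1, which carries CMP-sialic acid into the Golgi, had 981 and 761.2 in the AID-silenced clones and 742.7 and 643.9 in the control clones, a difference of 0.32 ± 0.27 (SE, n = 2 per group). St3gal4, a sialyltransferase of selectin ligands, was the one of these 4 that was lower in both pairs, by 0.04 and 0.76 on the log2 scale. Fut4 and Fut7, the fucosyltransferases that finish the selectin-binding sugar, and Gcnt1, which starts the core branch it sits on, exceeded background on no array. St3gal6, another sialyltransferase, fell below the filter and was picked out after its values were seen. At its brightest probe set, 1447841_x_at, it had 107 and 68.3 in the AID-silenced clones and 18.2 and 24.5 in the control clones. Its other 4 probe sets were near background and disagreed in sign, from −0.52 to 0.28.

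In the list for S1P metabolism and the control of egress, 6 of 8 genes were tested, 2 higher in both pairs, 2 lower in both and 2 opposite, with a median of 0.02 and none called. Klf2, the transcription factor that drives S1pr1 in lymphocytes, had 44.1 and 48.6 in the AID-silenced clones against 396.1 and 50.6 in the control clones. Cd69, which removes S1PR1 from the surface, had 84.2 and 22.6 in the AID-silenced clones against 823.8 and 49.2 in the control clones. Both genes were high in the control clone of pair 1, which brought them past the filter, and low in the other 3 clones. Without that clone the difference of Klf2 was −0.10 and that of Cd69 −0.07, against −1.41 and −1.91 with it. S1pr1 itself had 28.9 in that clone, under the background level. Sgpp1, a phosphatase that breaks down S1P, had 664.7 and 651 in the AID-silenced clones and 523.7 and 293.6 in the control clones. Its other 2 probe sets gave 0.25 and 0.01, with opposite signs in the pairs. Sphk2, a kinase that makes S1P, differed by 0.05 ± 0.31 (SE, n = 2 per group). The dimmer probe set of Sphk2 gave −0.30, with opposite signs in the pairs.

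Of the partners of CD44 and ALCAM, 7 of 12 measured genes were tested, with 1 higher in both pairs, 3 lower in both and 3 opposite, and none called. The median of the mean differences was 0.20, the value of Nf2, whereas the medians within the pairs were −0.109 in pair 1 and −0.017 in pair 2. Msn, or moesin, which ties the tails of CD44 and PSGL-1 to actin, had 4409 and 3972 in the AID-silenced clones against 7572 and 4814 in the control clones. It was lower in both AID-silenced clones without overlap, by −0.53 ± 0.27 (SE, n = 2 per group, limma adjusted p = 0.9996), and its second probe set gave −0.67 ± 0.25, also without overlap. Rdx, or radixin, was lower in both pairs at all 3 of its probe sets, with overlapping groups and mean differences from −0.44 to −0.23. L1cam, an adhesion molecule that binds ALCAM, differed by −0.21, and Nf2, or merlin, by 0.20 at its brightest probe set and by −0.46 to −0.12 at the other 3. Cd6 and Cd74 were picked out after their values were seen, for the distance between their control clones. Cd6, the receptor for ALCAM, had 539.8 and 657.9 in the AID-silenced clones and 7.5 and 831.5 in the control clones, so the control clone of pair 1 alone was under background. Cd74, the invariant chain and a partner of CD44, had 1573 and 2375 in the AID-silenced clones and 4931 and 137.7 in the control clones, with both AID-silenced clones between the control clones, as for Cxcr4.

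Downstream of chemokine receptors, 16 of 23 measured genes were tested, 6 higher in both pairs, 5 lower in both and 5 opposite, with a median of 0.04 and none called. Pik3cg, the PI3 kinase subunit that G protein beta-gamma dimers activate, had 6187 and 4232 in the AID-silenced clones against 3329 and 2701 in the control clones, and its second probe set had 874.5 and 813.4 against 494.9 and 431. The AID-silenced clones lay above the control clones at both, by 0.77 ± 0.26 and 0.85 ± 0.26 (SE, n = 2 per group), and limma gave an adjusted p of 0.9996 at each. Gnb1, a G protein beta subunit, had 8534 and 8317 in the AID-silenced clones against 6488 and 5909 in the control clones, and differed by 0.44 there and by 0.55 at a second probe set, again without overlap. Gnai2, the inhibitory alpha subunit through which chemokine receptors signal, differed by 0.50 and 0.56 at its 2 probe sets. At the brighter one the pairs were unlike, with 0.99 in pair 1 and 0.01 in pair 2. Rap1a, a small GTPase that activates integrins, differed by 0.39 ± 0.19 (SE, n = 2 per group).

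**Figure D4:**
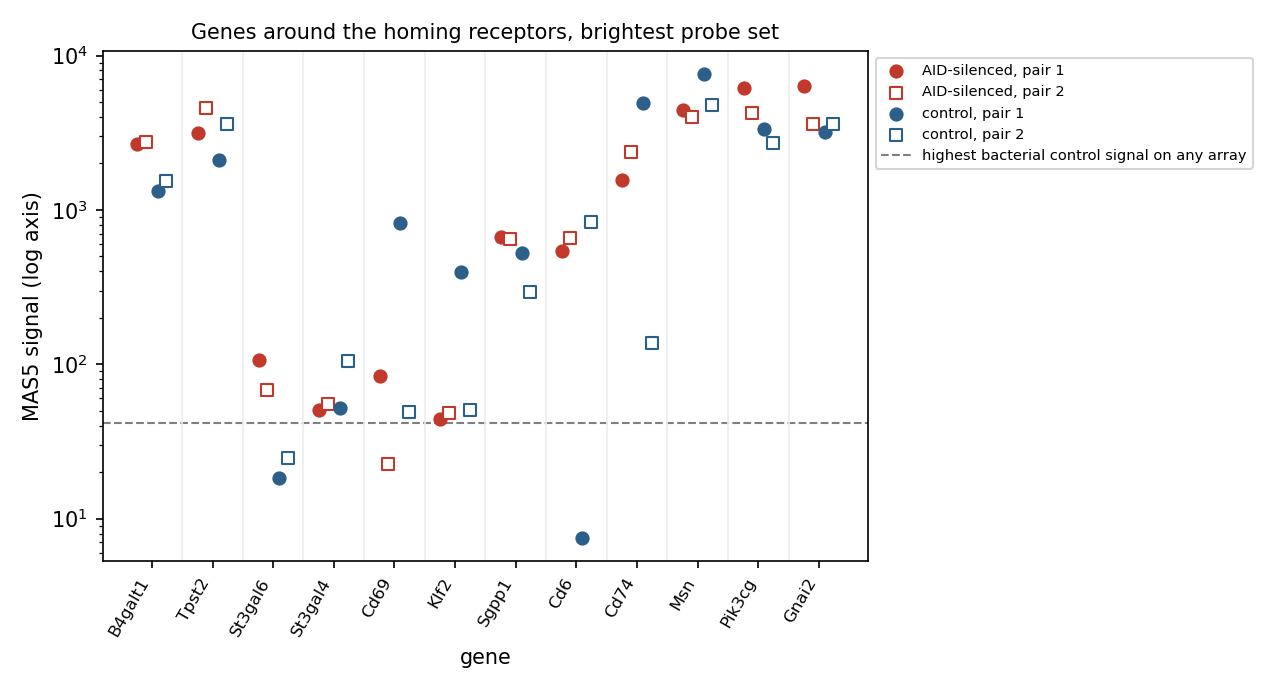
Signal (log axis) of 12 genes for selectin ligand synthesis, egress control, CD44 or ALCAM partners and receptor signalling at the brightest probe set, in the AID-silenced clones (red) and the control clones (blue), with filled circles for pair 1, open squares for pair 2 and 1 array a point. The dashed line is 41.9, the highest bacterial control signal on any array. The groups do not overlap for B4galt1, Pik3cg, Gnai2, Sgpp1 and St3gal6, higher in the AID-silenced clones, and for Msn and Klf2, lower there. Cd69, Klf2 and Cd6 set the control clone of pair 1 apart.

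The ligands of these receptors and the remaining chemokine and S1P receptors were mostly dim. Of 7 measured ligands 2 were tested, Ccl25 and Ccl28, and both had opposite signs in the pairs. Cxcl12, the ligand of CXCR4, had 21.6 and 36.1 in the AID-silenced clones and 28.4 and 25.1 in the control clones. Of 17 other receptors 4 were tested, with 1 higher in both pairs, 2 lower in both, 1 opposite and a median of −0.17. Ackr2, a scavenger of inflammatory chemokines, had 71.1 and 46 in the AID-silenced clones and 100.3 and 79.4 in the control clones, a difference of −0.52 ± 0.37 (SE, n = 2 per group), and its dimmer probe sets gave −0.38 and 0.15. Ccrl2, an atypical receptor, had 595 and 189.5 in the AID-silenced clones and 665 and 275.1 in the control clones, ordered by pair as Alcam was. Ccr6, a receptor for CCL20, had 64.5 and 63.9 in the AID-silenced clones against 55 and 44.2 in the control clones.

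The tested genes whose centred log2 values were nearest to those of Ccr10 over the 4 arrays were Paqr7, Abhd6 and Dgcr2, at distances of 0.24, 0.29 and 0.33 log2 units among 10475 genes. Paqr7, a membrane progesterone receptor, had 126.4 and 114.7 in the AID-silenced clones and 48.9 and 6.4 in the control clones. Abhd6, a lipid hydrolase, had 156 and 165 in the AID-silenced clones and 43 and 7.7 in the control clones. Dgcr2, a membrane protein, had 7545 and 6545 in the AID-silenced clones and 2122 and 1014 in the control clones.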

How the data were processed

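The authors deposited 1 linear array intensity for each probe set and clone, which per the submitters' processing notes is a MAS5 signal, and no further scaling was applied. A pseudocount of 16 was added before log2. Of 45101 probe sets, 64 Affymetrix controls were left out and 22519 in the upper 0.5 by mean log2(signal + 16), equivalent to a signal of about 49.4, were tested. Symbols came from the platform annotation, which gave 1 symbol to 34958 probe sets and several to 932. The 9 members and the lists were chosen with earlier results of these data known. From each list, up to 4 tested genes with the largest difference of the same sign in both pairs were named. Other genes were named after their values were seen where the text says so, as were Ccl25, Ccl28, Cxcl12, Fut4, Fut7 and Gcnt1.

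Groups were compared with limma 3.58.1 (R 4.3.3, statmod 1.5.0; trended, robust eBayes) without a pair term, tested on simulated data first. With 2 arrays against 2, an exact two-sided permutation test cannot go below 0.333, and the number of arrays limits precision. The series text describes the pairs as used together for RNA extraction and hybridisation, so the numbers were taken as pairs. Pair 2 minus pair 1 correlated between AID-silenced and control clones across probe sets (r = 0.306, rho = 0.336). Alternatives were the pair as a block, quantile and median scaling, pseudocounts of 1 and 64, no and a stricter filter, a plain eBayes prior, the mean of probe sets and leaving out each clone. The level of the silenced gene was not analysed here. In bulk RNA, fewer expressing cells and less RNA per cell cannot be told apart. Figures were drawn with matplotlib 3.10.9.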

Additional observations from a re-analysis of the deposited data

How the results depend on the processing

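With the pair as a replicate block, 8 probe sets of the whole table were called against 2 without it, and none of the 12 tested member probe sets was called in either fit. The lowest member adjusted p with the block was 0.397, for Ccr10. The whole-table count was 1 with a pseudocount of 1, 5 with 64, and 0 with a plain eBayes prior, where 836 probe sets had an unadjusted p under 0.05. Leaving out 1 clone at a time gave 0 to 146 calls in the whole table and 0 to 1 among the members. A left-out clone leaves 1 array in its group, which limma assumes to vary like the others. Without a low-signal filter more genes were counted. Among the members, Ccr9 was then lower in both pairs, and 5 were higher in both against 4 with the filter. Of the list genes, 23 were then higher in both and 21 lower in both, each against 14 with the filter. The stricter filter counted fewer genes, with 13 list genes higher in both and 8 lower in both, each against 14. Of 339 recomputed differences over 28 genes, 325 kept their direction. The pair block, both filter settings and the plain eBayes prior leave a mean difference unchanged by design. Their part of the 325 was therefore fixed beforehand. The 14 that changed sign, in 10 genes, came from leaving out 1 clone, where differences ran from −0.42 to 0.80 for Cxcr4, −0.47 to 0.20 for Cxcr3, −0.19 to 0.90 for Alcam, −1.12 to 0.46 for Ccrl2, −0.18 to 0.27 for Sphk2, −0.81 to 0.015 for St3gal4, −0.53 to 0.06 for Rdx, −0.56 to 0.13 for L1cam, and, from signals mostly under background, −0.36 to 0.87 for S1pr1 and −0.28 to 0.02 for Ccr7. The difference of Klf2 reached −2.73 without the control clone of pair 2. The only control clone left there was that of pair 1, whose signal of 396.1 had brought Klf2 past the filter. The difference of Ccr10 was 2.83 with a pseudocount of 1 and 1.12 with 64. Signals at or near the bacterial controls limit Ccr7, Ccr9 and S1pr1. They also limit the size of the Ccr10 difference, since both of its control signals lay under background. Counts within pairs could not be formed with a clone left out.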
